A study of Sus scrofa with 4 samples.

Results

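The loci described here are 5638 stretches of the pig genome that the deposited expression table lists under an XLOC identifier and with a dot in place of a strand. They were taken by that rule from 35248 rows, of which 9368 are XLOC loci and 25880 are Ensembl genes. The other 3730 XLOC loci carry a plus or a minus sign and serve as a comparison. XLOC is the prefix that read-based transcript assemblers of the Cufflinks family give to loci outside or beside the annotation. The sources used here do not say how these loci were built.

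The study sequenced RNA from 4-cell porcine parthenogenetic embryos, which arise from electrically activated oocytes, hold no sperm genome and were cultured for 48 h in PZM-3 with serum albumin after a cytochalasin B step. Smart-seq2 libraries were made from total RNA. In 2 libraries the embryos had been exposed to 50 µM Bobcat339, a cytosine-based compound used against the TET dioxygenases; the labels do not say when exposure began or ended. The 2 control libraries received DMSO, for which the labels repeat the concentration of the compound. The number of embryos per library and whether replicates were separate cultures are not given, so the spread between replicates may be technical. Library totals ran from 13568525 to 14681221 counts. Oocyte and early embryo markers (8 of 9 found; BMP15, WEE2 and KLF17 among them) summed to 11350 to 12830 CPM (counts scaled to library size) in each library. Levels differed widely within that list, with ZAR1 at 0.437 to 1.29 CPM and ZP3 at 21.7 to 28.8 CPM. Cumulus and granulosa markers (9 of 10 found) summed to 111 to 139 CPM, with AMH at 0. Most of that sum was VCAN (57.75 to 82.04 CPM) and VIM (27.45 to 54.42 CPM). Blood and immune markers summed to 11.7 to 16.4 CPM.

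As background, RNA from libraries that do not mark the strand can be oriented only where a read crosses a splice junction, because the bases at the intron's ends differ between the strands. A transcribed stretch without a junction therefore keeps no sign. Such stretches can come from unspliced noncoding RNA, from RNA made at enhancers or upstream of promoters, from unannotated exons or gene ends, from incompletely processed transcripts or from repeats, and genome activation in early embryos is known for broad transcription outside genes.

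All 5638 loci had a deposited length equal to the span from start to end, as a single uninterrupted exon has, against 3.57% of the stranded XLOC loci and 20.8% of Ensembl genes. They were short. The median length was 262 bases, the quartiles were 238 and 315, and the shortest locus had 200 bases. Loci under 300 bases numbered 4085 (72.5%), loci from 300 to under 1000 bases 1030, loci from 1000 to under 5000 bases 497 and loci of 5000 bases or more 26. The longest, XLOC_011375, spanned 19807 bases. The median stranded XLOC locus had 1549 bases.

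No unstranded locus lay inside an Ensembl gene: 0 of 5638 shared a base with one, in either orientation, whereas 14 stranded loci did. Another 1572 loci (27.9%) lay within 10000 bases of an Ensembl gene and 4066 (72.1%) lay farther away, 38 of them on sequences that carry no Ensembl gene in the table. The median distance was 4380 bases in the nearer class and 51016 bases in the farther class, with a maximum of 1784244. At the boundary, the last loci inside were 9996 bases from PITPNC1 and from UTP14A, at 3.30 and 3.75 FPKM, and the first outside was 10005 bases from PHF21A, at 0.846 FPKM. FPKM is the deposited level per length, scaled to the library total.

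The positions around genes were lopsided. Of the 1572 loci within 10000 bases, 1046 lay on the 5′ side of their nearest gene and 526 on the 3′ side. Within 2000 bases there were 320 on the 5′ side and 0 on the 3′ side, and between 2000 and 3000 bases there were 123 and 83. Measured against every Ensembl gene and not only the nearest, again 0 loci started within 2000 bases past a 3′ end, and the closest lay 2012 bases past one. The empty zone has a sharp edge, since 83 loci filled the very next kilobase. Stranded loci did not show it: 175 lay within 2000 bases on the 3′ side, 52 of them on the strand of the gene, and 365 on the 5′ side. Farther than 10000 bases, 2205 unstranded loci were on the 5′ side and 1823 on the 3′ side. The sources used here do not give the rule by which loci were kept in the table, so the shares of these classes describe the table and not all transcription near genes.

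**Figure D1:**
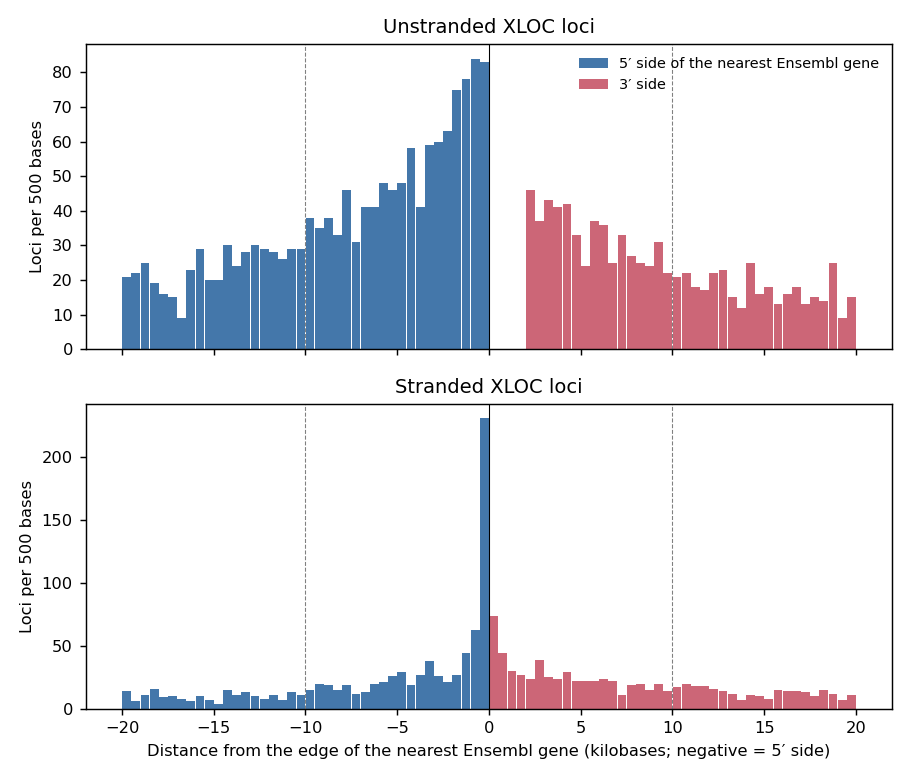
Number of unstranded (top) and stranded (bottom) XLOC loci per 500 bases of distance from the edge of the nearest Ensembl gene, in kilobases, with the 5′ side of the gene at negative and the 3′ side at positive values and dashed lines at 10 kilobases. Unstranded loci are absent from the 2000 bases past gene ends and number 83 in the 500 bases before gene starts.

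A second annotation placed many of the loci in genes. RefSeq genes of Sscrofa11.1 overlapped 1116 of the 5638 loci (19.8%), 1056 of them over their whole length. Protein-coding genes accounted for 600, long noncoding RNA (lncRNA) genes for 478 and pseudogenes for 36. The overlap was 295 of 1572 loci (18.8%) in the class near Ensembl genes and 821 of 4066 (20.2%) in the farther class. LncRNA overlaps made up 5.79% of the nearer and 9.52% of the farther class. A further 157 loci sat on unplaced sequences, where no RefSeq comparison was made. Stranded XLOC loci shared a base with 98 unstranded loci and had an edge within 10000 bases of 388 more. Another unstranded locus lay within 10000 bases of 874, the smallest gap being 208 bases, and the median distance to the next one was 84124 bases.

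By chromosome, X held the densest set, with 423 loci or 3.36 per megabase of the span covered by the table; the autosomes ranged from 1.80 on chromosome 2 to 2.84 on chromosome 18. Stranded XLOC loci were also densest on X (1.88 per megabase), while Ensembl genes stood at 8.35 per megabase there and 15.2 on chromosome 2. The Y chromosome, which an embryo made from an oocyte alone does not inherit, held 14 unstranded loci, and all 14 had counts. Their summed counts were 213 and 158 in the Bobcat339 libraries and 214 and 184 in the controls. One of them, XLOC_038958 (Y: 25272836 to 25273255), took 111, 77, 86 and 107 of these and lies in a RefSeq lncRNA gene, and XLOC_038953 lies in RefSeq XG and had 15, 11, 27 and 11. XLOC_038952 has CD99 as its nearest gene and XLOC_038946 has STS, genes that X and Y chromosomes share in many mammals. Ensembl genes on Y had 434 to 525 counts per library over 79 rows. Together the unstranded loci on Y thus had counts in every library, and the groups overlapped in their sums. Counts at a locus on Y therefore do not by themselves show that this stretch was transcribed. Where the reads at Y loci come from was not tested.

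The loci took a small share of each library. Together they held 1.21% and 1.32% of the counts in the Bobcat339 libraries and 1.165% and 1.31% in the controls, against 8.06% to 9.66% for the stranded XLOC loci. A typical locus had 6.25 counts per library. The median FPKM was 1.46 (quartiles 0.976 and 2.27), compared with 2.46 for stranded XLOC loci and 0.429 for Ensembl genes, a median that includes 5169 genes with no count. Counts were present in all 4 libraries for 4244 loci (75.3%), in 3 for 861, in 2 for 364 and in 1 for 164, and 5 loci had none. A count of 0 allows a level of up to 0.204 to 0.221 CPM depending on the library, which is what 3 counts are worth; this limit is for counting error alone.

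The nearer and the farther class had similar levels. The median FPKM in Bobcat339 libraries 1 and 2 and control libraries 1 and 2 was 1.32, 1.74, 1.63 and 1.52 for the nearer class. For the farther class it was 1.38, 1.65, 1.60 and 1.24. The order of the classes thus changed from library to library: the nearer class was the higher one in 3 libraries and the lower one in Bobcat339 library 1. Loci inside RefSeq genes stood at 1.40, 1.74, 1.60 and 1.33. The nearest Ensembl gene of a locus in the nearer class had a median FPKM of 1.07, and the locus exceeded it in 874 of 1572 cases. In the farther class the nearest gene had 0.408 FPKM and was an Rfam-named small RNA row in 522 of 4028 cases. Across loci, the correlation between the log2 level of the locus and that of its nearest gene was 0.09 on the 5′ side (n = 1046), 0.16 on the 3′ side (n = 526) and 0.02 in the farther class (n = 4028). All these points share the same 4 libraries and many rest on a few counts.

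Length, in contrast, went with the number of counts but hardly with the level per length. The median count per library was 5 in loci under 300 bases and 10.8, 40.3 and 208 in the longer classes, while the median FPKM was 1.41, 1.58, 1.56 and 2.30. The 26 loci of 5000 bases or more held 36.3% of all counts on unstranded loci, and the 4085 shortest held 17.9%.

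**Figure D2:**
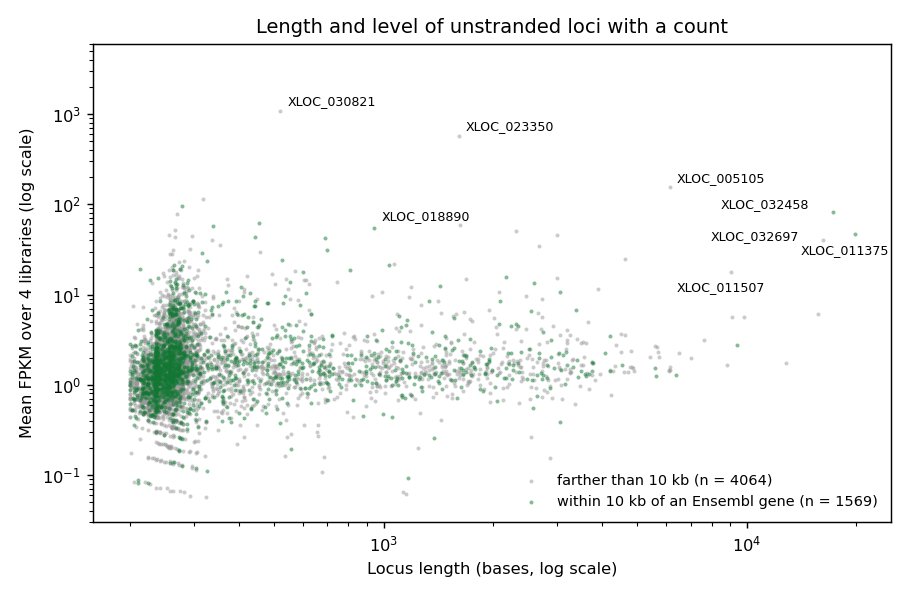
Mean FPKM over the 4 libraries (log scale) against length in bases (log scale) for the unstranded loci with a count, coloured by distance class, with the most abundant loci of each class and of those inside RefSeq genes named. Most points crowd under 300 bases and around 1 to 2 FPKM, and a few loci stand far above at all lengths.

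Very few loci carried much of the signal. The 6 most abundant held 43.5% of the counts on unstranded loci (39.8% to 46.0% by library), and the most abundant one alone 11.3%. That locus was XLOC_032458 (chromosome 8: 6452517 to 6469780, 17264 bases), which ends 1 base before the 5′ side of WDR1, an actin-filament disassembly factor, and overlaps the RefSeq lncRNA gene LOC110262055. Treated embryos had 1368 and 1556 CPM of it, and control embryos 986 and 1757 CPM. The controls enclose both treated libraries. WDR1 itself had 3.54, 9.62, 6.09 and 7.59 CPM, a mean of 0.970 FPKM against 82.1 for the locus.

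XLOC_005105 (chromosome 11: 31423901 to 31430035) stands 791416 bases from any Ensembl gene and 460683 from any RefSeq gene. Its levels were 1025 and 928 CPM with Bobcat339 and 1184 and 689 CPM in the controls. XLOC_023350 (chromosome 4: 53952873 to 53954482) is also remote, 212231 bases from a 5S ribosomal RNA row. It had 1188 and 753 CPM against 769 and 1010 CPM. In each of these remote loci the groups overlapped.

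XLOC_011375 (chromosome 14: 37962272 to 37982078) lies 2118 bases past a U6 small nuclear RNA row and 99964 bases from RBM19. It had 801 and 971 CPM with Bobcat339 and 731 and 1205 CPM without. XLOC_032697 (chromosome 8: 72828622 to 72844808) follows CCNG2, an atypical cyclin, at 28074 bases and had 525, 804, 509 and 777 CPM. Both were lower in the first and higher in the second library of each group.

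XLOC_030821 (chromosome 7: 10867824 to 10868342, 519 bases) overlaps the RefSeq lncRNA gene LOC106504325 and had the highest level per length of the abundant loci, 1087 FPKM. Its 4 values lay close together, at 589 and 521 CPM with Bobcat339 and 600 and 553 CPM in the controls. XLOC_011507 (chromosome 14: 74071215 to 74080263), inside the lncRNA gene LOC110256673 and 39751 bases from the netrin receptor gene UNC5B, had 148, 188, 105 and 210 CPM. XLOC_018890 (chromosome 2: 6756279 to 6757219), inside the lncRNA gene LOC102163816, had 48.5, 64.5, 54.1 and 41.5 CPM. The log2 fold changes of these 8 abundant loci, Bobcat339 over control, ran from −0.13 (XLOC_011375) to 0.24 (XLOC_018890), each with an edgeR Benjamini-Hochberg adjusted p of 0.999. The 95% interval for XLOC_032458 was −0.46 to 0.65, so changes of that width cannot be told from none.

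Did the treatment change the loci? The share of library counts on unstranded loci was 1.27% ± 0.0724 with Bobcat339 and 1.24% ± 0.105 in the controls (SD, n = 2 each; two-sided exact permutation p = 0.667). It was 0.438% ± 0.0504 against 0.436% ± 0.0886 for the nearer class (p = 1 by the same exact test) and 0.828% ± 0.022 against 0.802% ± 0.0161 for the farther class (exact permutation p = 0.667). With 2 libraries against 2 this test cannot go below 0.3333. In these bulk samples fewer cells with a transcript and less of it per cell cannot be told apart.

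Locus by locus, 1979 of the 5638 had enough counts to be tested with edgeR's quasi-likelihood test, 619 near genes and 1360 farther. Tested loci included 21.1% of the shortest class and all 26 of the longest. The filter, at 0.708 CPM, let 82 of them in through the Bobcat339 libraries alone and 86 through the controls alone. Of the loci named below, XLOC_003259 and XLOC_028809 entered through the Bobcat339 libraries alone. XLOC_011503, XLOC_028722, XLOC_009115, XLOC_016241, XLOC_005207 and XLOC_003333 entered through the controls alone. The values that let these loci in also set their difference. Counts below thus describe tested loci that passed the filter and not all members. None passed a Benjamini-Hochberg adjusted p of 0.05 (0 of 1979; all rows tested, 0%), and DESeq2 (0 of 5633; all rows 0.0167%) and limma-voom called 0 as well. At an unadjusted edgeR p under 0.05 there were 133 loci (6.72%), where all rows tested gave 4.00%; DESeq2 gave 109 (all rows 1.86%) and limma-voom 118 (all rows 3.50%). Of the 133, 46 were higher (2.32%, all rows 1.36%) and 87 lower (4.40%, all rows 2.64%).

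By class, 47 of 619 nearer loci (7.59%) and 86 of 1360 farther loci (6.32%) fell under that unadjusted p, against 4.00% of all rows. The nearer ones were 12 higher (1.94%) and 35 lower (5.65%), the farther ones 34 higher (2.50%) and 52 lower (3.82%). Over all rows 1.36% were higher and 2.64% lower. The 4 libraries were split without overlap, both treated above or both below both controls, in 222 nearer loci (35.9%) and 387 farther loci (28.5%), against 29.3% of all rows. Over both classes 288 loci were split upwards (all rows 13.3%) and 321 downwards (all rows 16.0%). Median log2 fold changes were −0.06 for the nearer and 0.00 for the farther class, with −0.02 over all rows. Loci inside RefSeq genes had 23 of 405 (5.68%) under the unadjusted p and a median of −0.02. On the 5′ side of genes 40 of 425 loci (9.41%) were under it, 11 higher (2.59%) and 29 lower (6.82%). On the 3′ side there were 7 of 194 (3.61%), 1 higher (0.52%) and 6 lower (3.09%). The share over all rows was again 4.00%. The difference between classes or sides was not tested.

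**Figure D3:**
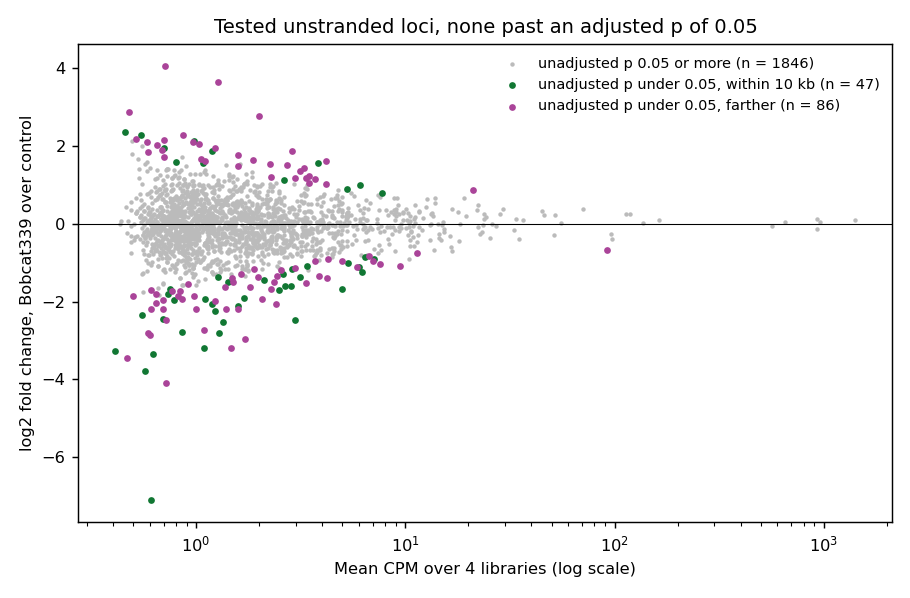
Log2 fold change, Bobcat339 over control, against mean CPM (log scale) for the 1979 tested unstranded loci, with the 47 nearer and 86 farther loci at an unadjusted edgeR p under 0.05 coloured. The spread narrows with level, and the coloured loci below 0 outnumber those above it, 87 to 46.

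Loci with lower values in treated embryos are given first. XLOC_028613 (chromosome 6: 87357067 to 87358019), 5646 bases past LAPTM5, a lysosomal membrane protein gene of blood cells, had 18 and 8 counts with Bobcat339 and 68 and 73 in the controls. In CPM this was 1.23 and 0.583 against 4.87 and 5.23, so both treated libraries lay far below both controls. Its log2 fold change was −2.46 (SE 0.52; 95% interval −3.57 to −1.36; edgeR adjusted p = 0.343). LAPTM5 was itself scarcely detected, at 0.204, 0.874, 0.645 and 0.716 CPM. The nearest RefSeq gene of XLOC_028613 was another one, MATN1, at 5584 bases.

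XLOC_003333 (chromosome 1: 248613275 to 248614169) lies 3557 bases upstream of KLF4, a pluripotency factor that is among the zygotic genes listed for neighbours. It had 0.273 and 0.364 CPM with Bobcat339 and 1.65 and 2.86 CPM in the controls, all treated values below all controls. The log2 fold change was −2.80 (SE 0.70; edgeR adjusted p = 0.68). KLF4 had 113, 96.1, 131 and 65.7 CPM, overlapping between the groups, with a log2 fold change of 0.09 (SE 0.32). XLOC_002659 (chromosome 1: 4888418 to 4890654), 4548 bases upstream of the RNA-binding protein gene QKI and inside the lncRNA gene LOC106506356, had 1.91 and 2.84 CPM against 5.66 and 9.59 CPM. Its log2 fold change was −1.68 (SE 0.44; edgeR adjusted p = 0.741), and QKI stood at 0.13 (SE 0.34). For both, the difference between locus and gene was not tested.

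Farther from genes, XLOC_009115 (chromosome 13: 79642923 to 79644815), 32083 bases upstream of the phosphoinositide kinase gene PIK3CB, had 7 and 4 counts with Bobcat339 and 31 and 54 in the controls (log2 fold change −2.95, SE 0.65, edgeR adjusted p = 0.343). XLOC_016241 (chromosome 18: 45174694 to 45176827), 24963 bases from a U6 row, had 5 and 3 counts against 25 and 49 (−3.20, SE 0.71, edgeR adjusted p = 0.343). XLOC_016250 (chromosome 18: 46172700 to 46175241) follows CBX3, a heterochromatin protein gene, at 17899 bases and had 0.613 and 1.24 CPM against 2.37 and 5.44 CPM (−2.07, SE 0.59). Without control library 2 the log2 fold change of XLOC_016250 was −1.33. CBX3 was level across the groups, at 54.0, 54.3, 57.2 and 50.1 CPM. In each of these loci control library 2 was the highest of the 4.

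Inside RefSeq genes the same naming rule added XLOC_032821 (chromosome 8: 124283446 to 124285317), in the netrin receptor gene UNC5C, with 0.817 and 0.364 CPM against 1.65 and 3.51 CPM. It also added XLOC_014184 (chromosome 16: 50563345 to 50566549), in the lncRNA gene LOC102164818 and 64230 bases upstream of CPEB4, a regulator of cytoplasmic polyadenylation. That locus had 6.68 and 5.39 CPM against 9.46 and 16.3 CPM, a log2 fold change of −1.09 (SE 0.38; −0.61 without control library 2), while CPEB4 had 208, 187, 152 and 150 CPM and 0.38 (SE 0.26). Neither locus nor CPEB4 passed (edgeR adjusted p = 0.965 for XLOC_032821, 0.999 for the others).

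In the higher direction, XLOC_003259 (chromosome 1: 211233223 to 211234591), inside the lncRNA gene LOC102164767 and 634372 bases from an Ensembl gene, had 31 and 36 counts with Bobcat339 and 5 and 0 in the controls (log2 fold change 3.66, SE 0.87, edgeR adjusted p = 0.53). XLOC_009120 (chromosome 13: 81084407 to 81085185), inside RefSeq CLSTN2, a synaptic cadherin-like gene, had 2.79 and 6.27 CPM against 1.29 and 1.15 CPM (1.89, SE 0.53). XLOC_009224 (chromosome 13: 112667619 to 112670343), inside RefSeq NLGN1, a neuronal adhesion gene, had 21 and 76 counts against 14 and 0 (2.77, SE 0.89). In XLOC_009224 the lower treated library, with 21 counts, lay close to the higher control, with 14. These sizes changed when a library was left out. XLOC_003259 changed little without Bobcat339 library 1 (3.80) or Bobcat339 library 2 (3.55). The log2 fold change of XLOC_009224 was 1.55 without Bobcat339 library 2, 1.79 without control library 2 and 8.62 without control library 1, and that of XLOC_003259 ran from 2.72 without control library 2 to 8.07 without control library 1. Without control library 1 the remaining control has 0 counts at both loci, so 8.62 and 8.07 depend on the prior count and are no bounds; the edgeR adjusted p were then 3.3e-06 and 0.000295. XLOC_009120 stood at 1.24 without Bobcat339 library 2.

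Near genes, the rule named 3 loci with higher values. XLOC_038466 (X: 45590807 to 45591439), 7935 bases from an unnamed Ensembl gene with no count, had 4.02 and 7.43 CPM against 2.94 and 0.931 CPM (log2 fold change 1.56, SE 0.53). XLOC_006676 (chromosome 12: 1053745 to 1053967), 1252 bases upstream of MYADML2, had 24 and 29 counts against 12 and 2. XLOC_034955 (chromosome 9: 119899408 to 119900567), 3023 bases upstream of LOC106505010, had 5.18 and 11.0 CPM against 3.87 and 4.22 CPM. Each had an edgeR adjusted p of 0.999. In XLOC_038466 and XLOC_006676 control library 2 was far below control library 1. Without control library 1 their log2 fold changes were 2.61 and 3.63 (edgeR adjusted p = 0.00045 and 0.0346), and without control library 2 they were 0.98 and 1.14 (0.238 and 0.462). XLOC_034955 stood at 0.40 without Bobcat339 library 2.

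Among the 10 loci with the smallest p, 4 fall outside the naming rule and were chosen after their values were seen. XLOC_011503 (chromosome 14: 73317877 to 73318113, 237 bases), 5507 bases upstream of the translation repressor gene EIF4EBP2, had 0 counts in both treated libraries and 13 and 21 in the controls, at least 5.69-fold lower when 3 counts per library stand for 0. EIF4EBP2 had 43.7, 39.8, 46.1 and 34.1 CPM. XLOC_005207 (chromosome 11: 63820454 to 63821549), 4088 bases past the transcription factor gene SOX21, had 6 and 0 counts against 26 and 29. With RefSeq genes its distance to SOX21 was 561 bases. XLOC_028722 (chromosome 6: 114649199 to 114649426) had 0 and 2 counts against 23 and 15, a ratio of 19.0 in favour of the controls (exact 95% counting interval 4.91 to 163). XLOC_028809 (chromosome 6: 146765936 to 146766175), 32804 bases past the leptin receptor gene LEPR, went the other way with 18 and 20 counts against 1 and 1, a ratio of 19.0 (4.91 to 163). These intervals cover counting error only. The 4 edgeR adjusted p were 0.343, 0.789, 0.68 and 0.492. Without Bobcat339 library 1 the remaining treated library has 0 counts at XLOC_005207, and without Bobcat339 library 2 the same holds for XLOC_028722; the log2 fold changes were then −7.78 and −7.26, which are no bounds.

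**Figure D4:**
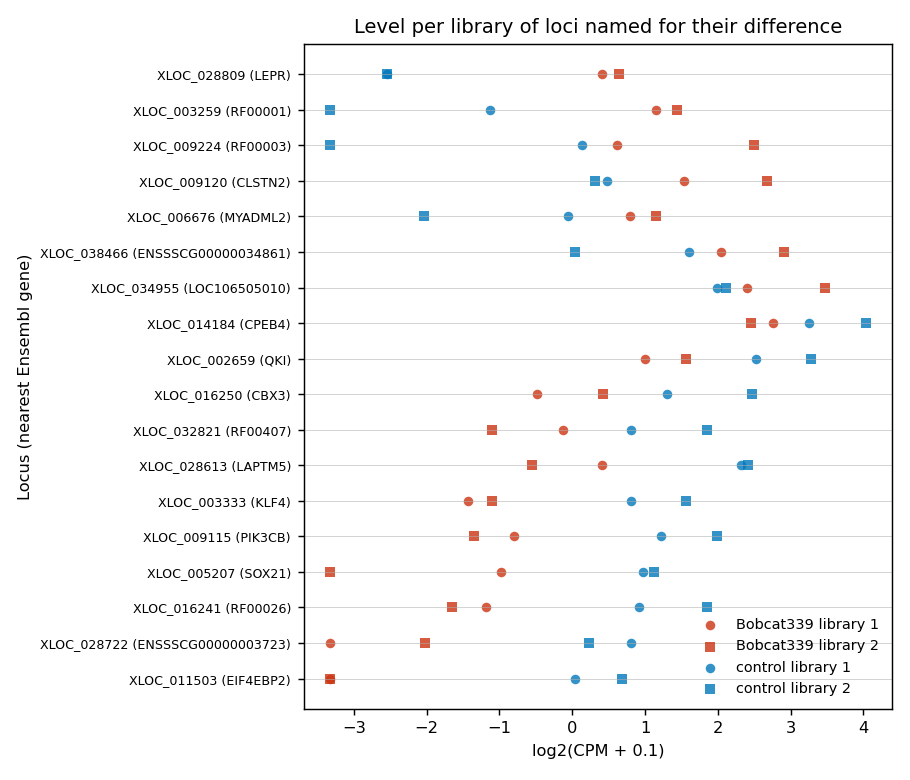
Level of each library, as log2(CPM + 0.1), for the 18 loci named for their difference, ordered by log2 fold change and labelled with the nearest Ensembl gene. Red marks are Bobcat339 and blue marks control libraries; the 2 colours do not overlap in any of these loci, which the naming rule required for 14 of them.

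The 35 lower loci near genes had 28 tested nearest genes, of which 1 had an unadjusted edgeR p under 0.05 and 15 a log2 fold change below 0. For the 12 higher loci near genes these were 6 tested, 0 under that p and 1 above 0. Farther away, 1 of 31 tested nearest genes of lower loci and 2 of 18 of higher loci were under it. All rows tested gave 4.00%, and with so few genes these shares are not read as a result. Across the 444 nearer loci tested together with their gene, the correlation of the log2 fold changes of locus and gene was 0.01, and it was 0.03 over 724 farther loci; both quantities come from the same libraries. Of 26 maternal oocyte transcripts listed for neighbours, 22 were found in the table and 2 had unstranded loci within 10000 bases: ZP3, a zona pellucida protein, with 2 and the oocyte kinase MOS with 1. None of these 3 was tested. Of 20 listed genes of zygotic genome activation, 14 were found and 3 had a locus each. Beside KLF4 these were OTX2, whose locus had 4.43 and 8.09 CPM against 7.95 and 6.01 CPM, and MYC, whose locus had 1.57 and 2.84 CPM against 2.15 and 2.01 CPM. Both pairs overlapped (log2 fold change −0.16 and 0.08; edgeR adjusted p = 0.999 each).

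Long and short loci differed in their direction, a split that was made after the values were seen. Of 511 tested loci with at least 1000 bases, 337 had a log2 fold change below 0 (median −0.22), as had 9781 of all 18481 rows tested (median −0.02). At an unadjusted edgeR p under 0.05, 51 long loci were lower (9.98%, all rows 2.64%) and 8 higher (1.57%, all rows 1.36%). Of 1468 shorter loci 684 were below 0 (median 0.05). At that p 36 of them were lower (2.45%) and 38 higher (2.59%). Within the middle range of counts of the long loci, 27.6 to 83.0 per library, 8.24% of long loci, 2.35% of stranded XLOC loci and 3.64% of Ensembl genes were lower at that p.

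Control library 2 moved with this pattern. The median over long loci of log2 CPM minus each locus's mean was 0.30 in control library 2, −0.09 in control library 1, 0.02 in Bobcat339 library 2 and −0.21 in Bobcat339 library 1. In short loci it was −0.23 in control library 2 and 0.20 in control library 1, with 0.11 and 0.02 in the treated libraries. The control libraries were thus the extremes in the short loci, and in the long loci control library 1 lay between the treated ones. Without control library 2 the long loci had a median log2 fold change of 0.05 (514 tested) and the short loci 0.01 (2300 tested), so these medians no longer differed in sign. Without control library 1 they were −0.35 (516 tested) and 0.46 (2198 tested). The treated libraries mattered too. Without Bobcat339 library 1 the long loci stood at −0.14 (517 tested) and the short loci at 0.05 (2259 tested). Without Bobcat339 library 2 both were below 0, at −0.34 (515 tested) and −0.075 (2118 tested). The filter was rerun with each library left out, so these medians do not cover the same loci. With all 4 libraries 511 long and 1468 short loci were tested. The part of newly entered loci in these shifts was not tested. With at least 5 CPM in 2 libraries the long loci stood at −0.05 (165 loci) and the short loci at 0.21 (63 loci). A gap of over 2-fold within a pair was seen at 34.2% of tested unstranded loci in the controls and at 23.5% in the Bobcat339 libraries, against 13.2% and 6.26% of Ensembl genes; the median count was 18.8 and 206. The part of single libraries or of low counts in the length pattern beyond these values was not tested.

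**Figure D5:**
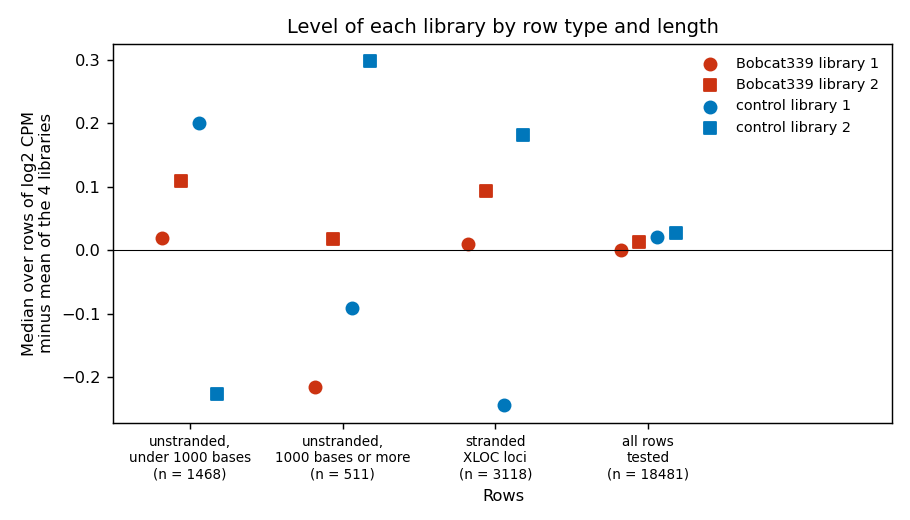
For each library, the median over rows of log2 CPM minus the row's mean over the 4 libraries, in short and long unstranded loci, stranded XLOC loci and all rows tested. Control library 2 is the lowest in short loci (−0.23) and the highest in long loci (0.30), whereas in stranded loci control library 1 is the lowest (−0.24), and all rows together stay between 0.00 and 0.03.

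The number of calls differed by which library was left out. Without control library 1, 76 of 2714 unstranded loci passed an edgeR adjusted p of 0.05 (2.80%; all rows 2.92%), 32 higher (all rows 2.03%) and 44 lower (all rows 0.887%). Without control library 2, 11 of 2814 passed (0.391%; all rows 2.47%), 3 higher (all rows 0.740%) and 8 lower (all rows 1.73%), and 2 loci were shared by these sets. These were XLOC_028613 near LAPTM5 (edgeR adjusted p = 0.00167 and 0.0147), and XLOC_023148, 2689 bases past the zinc finger gene ZNF251, with 6 and 89 counts under Bobcat339 and 5 and 4 in the controls. XLOC_023148 rests on Bobcat339 library 2. XLOC_032458 near WDR1 also passed without control library 2, with an edgeR adjusted p of 0.0331 and 0.60 on the log2 scale, and lay at −0.27 without control library 1. Of the 18 loci named for their difference, 14 passed without control library 1, and 1 of the 17 that could be tested passed without control library 2; they were chosen on this same contrast. Without either Bobcat339 library 0 passed. The remaining single library of a group is assumed in these fits to vary as the other group does. The filter was rerun in each of them, and a sufficient level in 1 library then let a locus in. With control library 1 left out 2714 unstranded loci were tested, against 1979 with all 4 libraries. For loci that entered through a single group, the values that let them in also set their difference. Without a control library the spread comes from the Bobcat339 pair alone. That pair differed over 2-fold at 6.26% of Ensembl genes, against 13.2% for the control pair. The part of this in the number of calls was not tested.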

How the data were processed

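Members, lists and length groups were chosen with earlier results of these data known. The authors deposited raw read counts per row and FPKM, per the file headers; for unstranded loci the FPKM equal count per length and library total. HISAT2 2.0.5, HTSeq, Trimmomatic and DESeq2 1.16.1, with no roles, and the build Sscrofa10.2 come from the submitters' processing notes. The coordinates instead follow Sscrofa11.1: of 14000 symbols compared, 99.9% overlap the RefSeq gene of that name. The sources used here do not say whether counting used strand, and base composition was not analysed here. Measurement columns of no sample number 0.

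Distances run from edge to edge to the nearest Ensembl row of the table (deposited length and coordinates), with classes at 0 and 10000 bases; loci on sequences without such a row count as farther. The whole table was fitted with edgeR 4.0.16 in R 4.3.3 (filterByExpr, minimum count 10, TMM, glmQLFTest, Benjamini-Hochberg; 18481 rows), a method tested on simulated data. CPM are TMM-normalised; log2 levels add a prior count of 2. Alternatives were DESeq2 1.42.0, limma-voom (limma 3.58.1), DESeq2 size factors, other filters, the replicate block, each library left out, other windows and RefSeq genes (added after seeing the data).

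Named loci are, per class, the 3 with the smallest p in each direction among those with non-overlapping groups and a mean of at least 1 CPM, and the 3 most abundant. The rule was extended to loci inside RefSeq genes after seeing the data.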

Additional observations from a re-analysis of the deposited data

How the results depend on the processing

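The count of 0 unstranded loci passing was also 0 with DESeq2, limma-voom, DESeq2 size factors, no filter and at least 5 CPM in 2 libraries, and ranged from 0 to 76 with a library left out. With the replicate number as a block, 10 passed (0.505%; all rows 0.238%), all of them loci named for their difference: XLOC_028613 (edgeR adjusted p = 0.0021), XLOC_003259 (0.00462), XLOC_011503 (0.00479), XLOC_009115 (0.0106), XLOC_016241 (0.0128), XLOC_009224 (0.0352), XLOC_005207 (0.0357), XLOC_002659 (0.0411), XLOC_028722 (0.0455) and XLOC_028809 (0.0468); the correlation of deviations between same-numbered libraries was 0.159 over all rows and 0.108 over tested unstranded loci, and the labels do not say that a number marks a shared culture. Of the loci that passed with the block, XLOC_011503, XLOC_009115, XLOC_016241, XLOC_005207 and XLOC_028722 had entered the test through the controls alone. XLOC_003259 and XLOC_028809 had entered through the Bobcat339 libraries alone. For these loci the values that let them in also set their difference. All 10 loci were named by their p on this same contrast, from these same libraries. Their adjusted p with the block therefore add no independent support. The share of counts, 0.0266 percentage points higher with Bobcat339, turned to −0.000497 without the 10 most abundant loci and ranged from −0.0474 to 0.101 with a library left out. The median log2 fold change ranged from −0.20 to 0.18 near genes and from −0.11 to 0.28 farther away with a library left out. The loci tested differed between these fits. The nearer class held 891 loci with a window of 5000 bases and 3564 with 50000 bases, which left 2074 farther; with RefSeq genes 1116 loci were inside.

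With a library left out the log2 fold changes of abundant loci changed sign, from −0.27 to 0.60 for XLOC_032458, −0.44 to 0.30 for XLOC_011375, −0.25 to 0.50 for XLOC_005105, −0.25 to 0.46 for XLOC_023350, −0.25 to 0.41 for XLOC_032697, −0.15 to 0.079 for XLOC_030821 and −0.32 to 0.70 for XLOC_011507. The cause was not tested. The median locus has 6.25 counts per library, which limits what any setting can show.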
